A study of Drosophila melanogaster with 16 samples.

Results

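The cuticle protein genes described here are the Drosophila genes whose symbols start with Cpr and a digit, Lcp, Ccp84A or Edg, or equal Pcp. Of 13754 genes in each deposited table, 96 carry such a symbol, and 71 of them had a mean normalized count of at least 10 in at least 1 of the tables and are the members. Poly(A) RNA was sequenced from 16 single embryos at stage 16, 15 to 16 h old. The first table holds 5 Asx0 embryos and 3 wild-type embryos, the second holds 4 SceI48A embryos and 4 other wild-type embryos, and every embryo is a sample of its own.

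Wild-type embryos were Oregon-R. Asx0 embryos were the GFP-negative progeny of parents that carried the null allele Asx22P4, which lies on an FRT chromosome with a y+ marker in a w background, over a CyO balancer with twi-Gal4 and UAS-GFP, so that RNA and protein from the mother remained possible. SceI48A embryos were also selected as GFP-negative. Their only Sce, from the mother and from the embryo, was a transgenic copy with the I48A change, in animals homozygous for a Sce null allele, after a wild-type rescue copy had been removed by Flp recombinase under nos-Gal4. Asx is a subunit of the PR-DUB deubiquitinase, which takes ubiquitin off histone H2A, and Sce is the E3 ligase of Polycomb repressive complex 1 that puts it on; the I48A change abolishes the ligase activity. Since each mutant came from a stock other than Oregon-R, the stock and the mutation cannot be told apart in any comparison below. The embryos were chosen by the authors from larger sets by their morphology and a principal component analysis, and in whole embryos fewer cells of a type and less RNA per cell cannot be told apart.

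The insect cuticle is a layered extracellular matrix that epidermal cells secrete at their apical side, made of chitin fibres and of proteins that bind them. Most Cpr, Lcp and Ccp proteins are secreted and share the Rebers and Riddiford consensus, a chitin-binding domain, and they differ in the stage and the body region where they are used. In late embryogenesis the epidermis deposits the cuticle of the first-instar larva, and transcripts of these genes appear in waves that follow the pulse of the moulting hormone ecdysone. Names carry the cytological band of the locus, so that Lcp65Ag1, for example, lies in band 65A. The Lcp genes were first known as larval cuticle proteins, Edg78E and Edg91 as ecdysone-dependent genes of imaginal discs, and the Ccp84A genes as the cuticle cluster inside the Antennapedia complex.

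The members were short and simple genes, many of them in tandem groups. In annotation release 6.54 of the dm6 assembly their median transcript was 834 bases long with a coding part of 453 bases, against a median of 2000 and 1368 bases over 10481 genes with a mean of at least 10 in either table. Exactly 2 exons were annotated for 51 of the 71 members (71.8%), against 19.0% of those 10481 genes. By chromosome, 37 members lay on 3L, 16 on 2R, 12 on 3R, 3 on 2L and 3 on X.

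Band 65A held the largest group, 13 members within 20.5 kb of 3L (6130386 to 6150857), 9 on the minus strand and 4 on the plus strand. In the order of the chromosome they were Lcp65Ag3, Cpr65Au, Lcp65Ag2, Lcp65Ag1, Lcp65Af, Lcp65Ae and Cpr65Av, then Lcp65Ad, Lcp65Ac, Lcp65Ab2, Cpr65Ax1, Lcp65Ab1 and Cpr65Ax2. Band 84A held 7 members within 18.2 kb of 3R (6686728 to 6704903), between the homeotic genes lab and pb, which start or end 8138 and 2897 bases from the outermost members. Bands 49A (5 members, 38.5 kb of 2R), 47E (4 members, 23.3 kb of 2R) and 64A (4 members, 8.58 kb of 3L) followed, and bands 62B, 65E, 67F and 78C and the Lcp1 to Lcp4 group on 2R held 3 members each. Edg78E lies 65 bases from Cpr78Cb, inside the 78C group, although its name gives band 78E.

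Of the 71 members, 68 reached the minimum mean of 10 in the Asx0 table, 63 in the SceI48A table and 60 in both. Cpr12A, Cpr64Aa and Cpr49Aa fell below it in the Asx0 table. Lcp4, Edg91, Lcp65Ab1, Lcp65Ab2, Cpr5C, Cpr78Ca, Cpr65Au and Cpr65Ax1 fell below it in the SceI48A table. Just inside the limit were Cpr64Aa, with a mean of 6.99 in the Asx0 table and 10.9 in the SceI48A table, and Cpr65Au (11.0 and 2.72), and just outside it was Cpr92A (9.56 and 5.59). Pcp, the pupal cuticle protein gene, had means of 3.02 and 6.32 and is no member.

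Levels within a table spanned a wide range. Per kilobase of transcript, the authors' mean normalized count was highest for Cpr65Ea in both tables, at 72623 per kb in the Asx0 table and 57080 per kb in the SceI48A table, and lowest among tested members for Cpr76Bd, at 3.22 and 2.66 per kb. Cpr51A came second in both (48643 and 40100 per kb). The next in the Asx0 table were Lcp65Ag2 (30810 per kb), Lcp65Ag1 (26579 per kb) and Cpr64Ad (21665 per kb), and in the SceI48A table Cpr64Ad came next, at 23233 per kb. Above 5000 per kb were 14 members in the Asx0 table and 10 in the SceI48A table. The member with the lowest mean among those tested was Cpr72Ec in the Asx0 table (10.7) and Cpr64Aa in the SceI48A table (10.9).

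The tables also differed from each other in the level of these genes, mutants and wild type alike. The ratio of the mean count in the Asx0 table to that in the SceI48A table had a median of 1.61 over the 60 members tested in both, and 27 of them (45.0%) exceeded 2. Over all 10069 genes tested in both tables the median ratio was 0.736 and 2.05% exceeded 2. The tables were normalized separately, so that these ratios are given side by side with no test.

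The wild-type embryos alone showed the same picture. After the median difference over 7920 genes with a mean of at least 100 in both tables was subtracted, the 37 members of that class were higher in the wild-type embryos of the Asx0 table by a median of 1.04 on the log2 scale, with 32 above 0 and 19 above 1. All 7 of these that lie in band 65A were higher, by 1.21 to 3.57, with Cpr65Ax2 at the upper end (mean log2 level 12.04 against 8.90) and Lcp65Ae next (10.44 against 8.20). At the other end, Cpr66D was at 12.22 against 13.18 and Cpr65Eb at 11.52 against 12.31. The Tweedle and Osiris genes, 2 other families expressed in cuticle-forming epidermis, had a median of -0.25 over 28 genes with a range from -4.0 to 2.12, so the families did not move together between the tables. The tables share no embryo, and the embryos, their libraries and the normalization cannot be told apart in this contrast.

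Edg91 and band 65A held the extreme cases. Edg91 was at 6.85, 6.78, 7.11, 6.66 and 7.15 in Asx0 and 6.82, 6.87 and 6.53 in the wild type of that table, against 1.55 to 1.59 in all 8 embryos of the SceI48A table, and its authors' mean counts were 121 and 3.0. Cpr65Ax1 had a mean of 53.8 in the Asx0 table and was listed at 0 in the SceI48A table, and Ccp84Ae had means of 920 and 56.7. In the Asx0 table only 1 embryo set Cpr65Ax1 apart, at 5.20 in Asx0, with the others at 4.02 to 4.06. Cpr65Ax1 and Cpr65Ax2 have an equal coding length of 306 bases, and how reads were divided between them was not tested. Genotypes within a table overlapped for Edg91 and Ccp84Ae.

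Asx transcript did not differ between Asx0 and wild type beyond its error (log2 fold change -0.03, SE 0.06, limma adjusted p = 0.793), with 10.16, 10.22, 10.31, 10.37 and 10.26 in Asx0 and 10.25, 10.27 and 10.35 in wild type. Sce transcript was at 9.08, 9.19, 9.12 and 9.10 in SceI48A and 8.93, 9.01, 9.01 and 9.11 in wild type (log2 fold change 0.11, SE 0.07, adjusted p = 0.381). Neither level checks the labels, since an allele can abolish a protein and leave its transcript. The 7 epidermal and cuticle secretion markers were all detected above the minimum in both tables. Their summed log2 level was 16.83 to 17.15 in Asx0 against 16.74 to 17.02 in its wild type, which overlap. Of the 7, shg was higher in Asx0 (0.22, limma adjusted p = 0.0499). In SceI48A the sum was 17.66 to 17.83 against 17.58 to 17.64 in wild type, with no overlap, and none of the 7 had an adjusted p under 0.05. No 2 embryos had identical values, and correlations between embryos over all tested genes ranged from 0.989 to 0.999.

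The deposited log2 values are shrunken toward the gene's mean where reads are few, so fold changes of low members are understated. For each table limma was fitted over all genes with a mean of at least 10, and a gene was called at a Benjamini-Hochberg adjusted p under 0.05. In Asx0, 12 of 68 members were lower than in wild type and 3 were higher. These are 17.6% and 4.41% of the members, beside 6.15% lower and 5.19% higher among all 10212 genes tested. The median log2 fold change was -0.0072 over the members and -0.00019 over all genes, and 34 members lay on each side of 0. Changes above 2-fold were called for 1 member, Lcp65Ag1, beside 0.441% of all genes. The groups did not overlap for 12 of the 15 called members and for 4 of the 53 uncalled ones, 23.5% of members in all, against 20.1% of all genes.

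In SceI48A, 11 of 63 members were lower and 1 was higher, which is 17.5% and 1.59%, beside 4.39% lower and 3.1% higher among all 10369 genes tested. The median log2 fold change was -0.07 over the members, with 43 of 63 below 0, against 0.00075 over all genes with 49.8% below 0. A change above 2-fold was called for 1 member, Cpr67Fa1, beside 0.405% of all genes. The groups did not overlap for any of the 12 called members, nor for 4 of the 51 uncalled ones, 25.4% of members in all, against 18.0% of all genes.

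**Figure D1:**
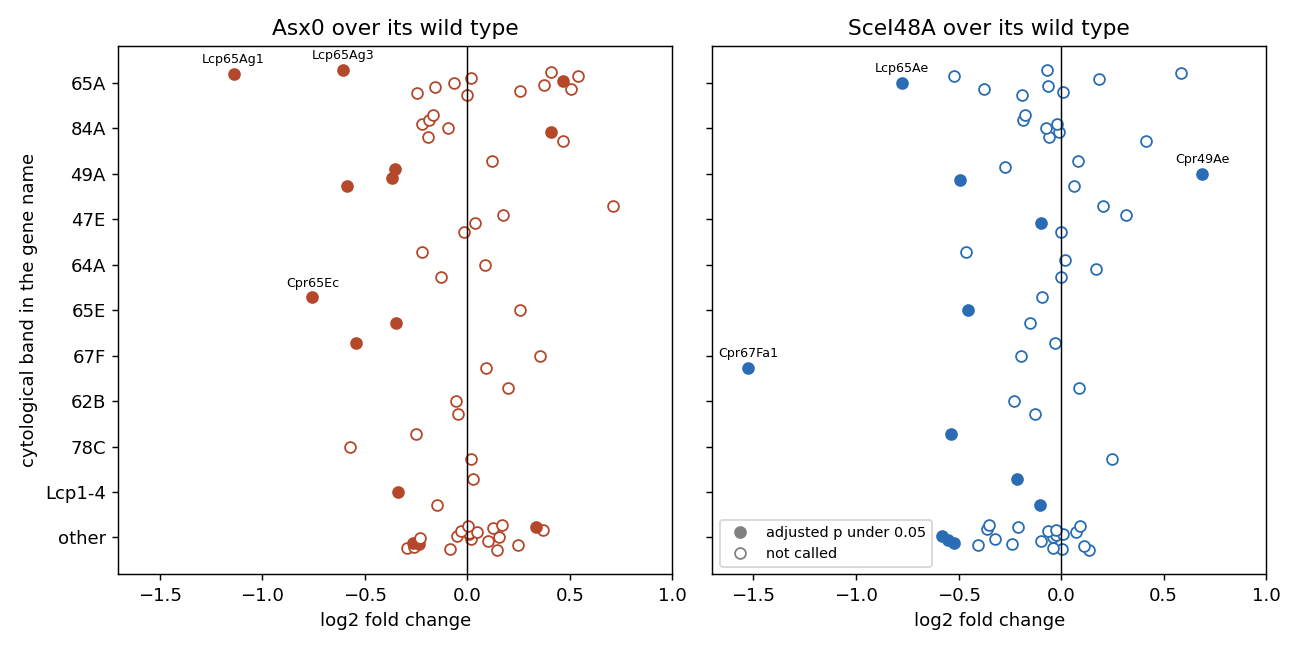
Log2 fold change of each tested member, mutant over the wild type of the same table, with Asx0 on the left and SceI48A on the right, by the band in the gene name (bands with fewer than 3 members and Edg91 as other). Filled points were called at an adjusted p under 0.05, open points were not; Lcp65Ag1 at -1.14 and Cpr67Fa1 at -1.53 lie farthest from 0 and most called members lie left of it.

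The Lcp65Ag genes are 3 numbered copies that encode larval cuticle proteins, with Cpr65Au between Lcp65Ag3 and Lcp65Ag2. They held the largest change in Asx0, with 2 copies lower and the other not called. Lcp65Ag1 was at 13.39, 12.85, 13.20, 12.76 and 13.36 in Asx0 and at 14.43, 14.49 and 13.83 in wild type (log2 fold change -1.14, SE 0.18, adjusted p = 0.00195). Lcp65Ag3 was at 13.04, 12.58, 13.02, 12.38 and 13.14 against 13.63, 13.54 and 13.15 (-0.60, SE 0.17, adjusted p = 0.0468). Lcp65Ag2, the most abundant of them in Asx0, was at 14.39, 13.97, 14.20, 13.77 and 14.38 against 13.82, 13.76 and 13.62 and was not called (0.41, SE 0.13, adjusted p = 0.0674). All Asx0 embryos thus lay below wild type for Lcp65Ag1 and Lcp65Ag3, while for Lcp65Ag2 only replicate 4 lay within the wild-type range. The gap was 0.45 for Lcp65Ag1 and only 0.0044 for Lcp65Ag3. The call of Lcp65Ag3 was kept under only 5 of 15 alternative fits (adjusted p up to 0.151).

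The 3 Lcp65Ag copies have transcripts of 517 to 543 bases and an equal coding length of 315 bases, and reads that fit more than 1 copy are divided between them by the quantification, so each copy's value is uncertain. The shares of Lcp65Ag1 and Lcp65Ag2 differed between mutants and wild type in both tables. Whether expression or the division of reads made the difference was not tested. Sums and shares of copies were taken from the deposited log2 values after back-transformation, which keeps their shrinkage. Of the sum of the 3 copies, Lcp65Ag1 took 44.8%, 47.3% and 40.2% in the wild type of the Asx0 table. It took 44.5%, 44.8%, 44.8% and 43.4% in the wild type of the SceI48A table. In Asx0 its share was 26.4%, 25.0%, 25.7%, 26.4% and 25.8%, and in SceI48A it was 27.3%, 33.8%, 34.7% and 26.6%. Lcp65Ag2 took 28.4% to 34.8% in the 7 wild-type embryos and 44.4% to 54.3% in the 9 mutant embryos, with no overlap, and Lcp65Ag3 took 18.7% to 25.8% in all 16.

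Summed over the copies before the fit, a step chosen after seeing the data, the Asx0 embryos were at 15.31, 14.85, 15.15, 14.68 and 15.32 and the wild-type embryos at 15.58, 15.57 and 15.15. The log2 fold change of the sum was -0.37 (SE 0.16) and was not called (adjusted p = 0.155). In SceI48A the sum was at 12.78, 13.79, 14.32 and 12.42 against 13.88, 12.98, 13.49 and 12.86, a difference of 0.02 (SE 0.36, adjusted p = 0.974). Sequence differences between the stocks and Oregon-R in these copies were not tested. The exons of Lcp65Ag3 and Cpr65Au also overlap an antisense RNA, CR46005, whose reads could not be separated where the counting ignored strand.

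**Figure D2:**
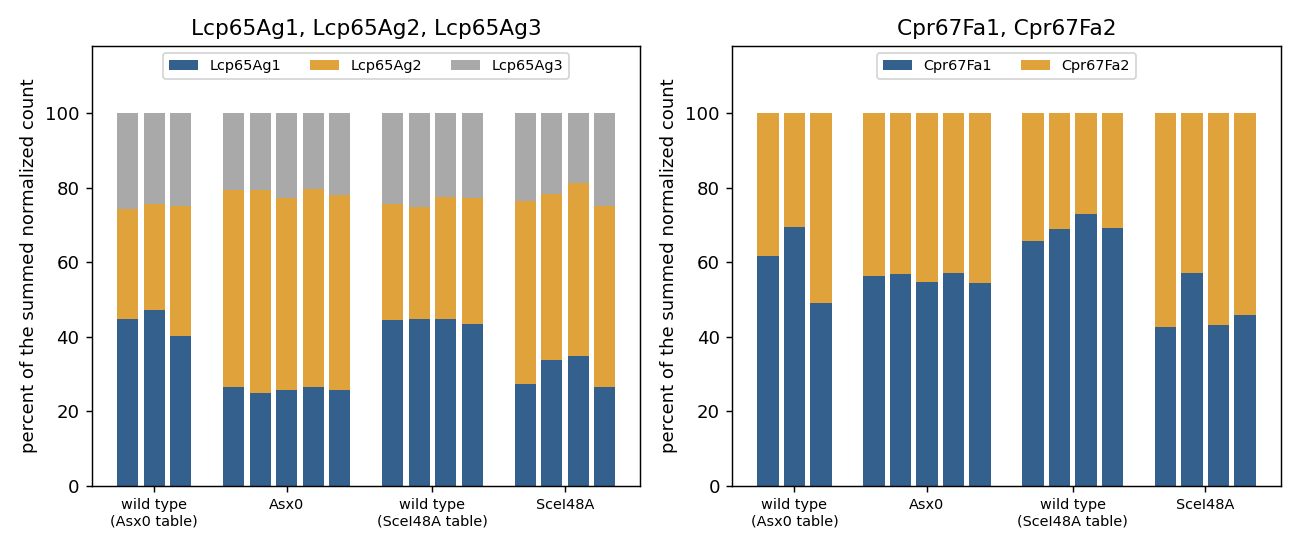
Share of the summed normalized count taken by each numbered copy, 1 bar per embryo, for the 3 Lcp65Ag genes on the left and for Cpr67Fa1 and Cpr67Fa2 on the right. Counts are the deposited, shrunken log2 values after back-transformation. Lcp65Ag1 takes 40.2% to 47.3% in wild type and 25.0% to 34.7% in the mutants. Cpr67Fa1 takes 65.6% to 72.9% in the wild type of the SceI48A table and 42.6% to 57.1% in SceI48A. In the wild type of the Asx0 table Cpr67Fa1 takes 49.01% to 69.37%, which overlaps the SceI48A range.

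Elsewhere in band 65A, Lcp65Ad rose in Asx0. It was at 7.42, 7.45, 7.49, 7.32 and 7.42 against 6.80, 7.09 and 6.97 in wild type, with every Asx0 embryo above every wild-type embryo (0.47, SE 0.07, adjusted p = 0.00156). In SceI48A it was at 5.93, 6.24, 6.37 and 6.10 against 6.19, 6.32, 6.31 and 6.06, and the groups overlapped (-0.06, SE 0.09, adjusted p = 0.725). Over the 13 tested 65A members, 1 was higher and 2 were lower in Asx0, with a median log2 fold change of 0.02 and a range from -1.14 to 0.54, the upper end being Lcp65Af (adjusted p = 0.0535).

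In SceI48A, 1 of 9 tested 65A members was called, Lcp65Ae. Its levels were 7.27, 7.29, 7.63 and 7.50 in SceI48A and 8.46, 8.00, 8.39 and 7.95 in wild type (-0.78, SE 0.13, adjusted p = 0.00371). All SceI48A embryos lay below wild type. In the Asx0 table Lcp65Ae was at 10.74, 10.39, 10.48, 10.01 and 10.69 against 11.04, 10.73 and 9.56 (0.02, SE 0.28, adjusted p = 0.977), and the wild-type embryos spanned the Asx0 range. The 9 members had a median of -0.07 and a range from -0.78 to 0.59, the upper end being Lcp65Ag2.

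Pairs of numbered copies gave isolated high values in band 65A. Cpr65Ax1 was at 5.20 in Asx0 replicate 1 and at 4.02 to 4.06 in the other 7 embryos of the table. Lcp65Ab2 was at 5.20 and 5.40 in Asx0 replicates 1 and 5 and at 4.41 to 4.45 in the others. Neither was called, and the values of the low embryos are nearly equal because of the shrinkage.

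The 67F genes, another set with numbered copies, carried the largest change in SceI48A. Cpr67Fa1 was at 9.91, 10.38, 10.12 and 9.53 in SceI48A and at 11.68, 11.33, 11.75 and 11.28 in wild type (-1.53, SE 0.16, adjusted p = 0.00025). The nearest embryos of the groups lay 0.90 apart. Its copy Cpr67Fa2 was at 10.34, 9.96, 10.52 and 9.77 against 10.75, 10.18, 10.32 and 10.12, and the groups overlapped (-0.19, SE 0.17, adjusted p = 0.519). Cpr67Fa1 took 65.6%, 69.0%, 72.9% and 69.1% of the sum of both copies in wild type and 42.6%, 57.1%, 43.1% and 45.9% in SceI48A. In the wild type of the Asx0 table its share was 61.54%, 69.37% and 49.01%. The lowest of these lay within the SceI48A range, so the share did not separate all wild-type embryos from SceI48A. Summed before the fit, again chosen after seeing the data, the 2 copies remained lower in SceI48A (-0.97, SE 0.15, adjusted p = 0.00265), at 11.14, 11.18, 11.33 and 10.65 against 12.29, 11.87, 12.20 and 11.81.

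In Asx0 the same pair did not pass the test. Cpr67Fa1 was at 12.25, 12.13, 12.21, 12.08 and 12.15 in Asx0 and at 12.23, 12.87 and 11.12 in wild type, so the spread lay in the wild-type embryos (0.09, SE 0.28, adjusted p = 0.874). The neighbouring Cpr67Fb, whose exons overlap the antisense RNA CR45171, was lower in Asx0, at 6.61, 6.39, 6.43, 6.44 and 6.79 against 7.43, 7.18 and 6.62 (-0.54, SE 0.16, adjusted p = 0.0478). Wild-type replicate 3 lay within the Asx0 range, and the call was lost when any of 6 embryos was left out (adjusted p up to 0.164 over the alternatives). In SceI48A the mean of Cpr67Fb was 26.2 and its change -0.03 (adjusted p = 0.788).

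In band 49A, Cpr49Ac was lower in both mutants. It was at 5.93, 6.0, 5.95, 6.04 and 5.97 in Asx0 and 6.35, 6.72 and 6.63 in wild type (-0.59, SE 0.08, adjusted p = 0.000609). In SceI48A it was at 6.65, 6.82, 6.72 and 6.65 against 7.0, 7.34, 7.20 and 7.27 (-0.49, SE 0.08, adjusted p = 0.00371). Mutant and wild-type embryos did not overlap in either table, and the call held under all 15 alternatives in each. Cpr49Ac has 7 exons, where the median member has 2.

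Cpr49Ae, 12.2 kb away, moved in opposite directions. It was at 9.55, 9.45, 9.72, 9.31 and 9.62 in Asx0 against 10.11, 9.89 and 9.69 in wild type (-0.36, SE 0.11, adjusted p = 0.0484). It was at 10.27, 10.04, 10.42 and 10.15 in SceI48A against 9.79, 9.61, 9.31 and 9.42 (0.69, SE 0.11, adjusted p = 0.004). All SceI48A embryos lay above wild type, while 1 Asx0 embryo lay within the wild-type range, and the fall there was lost under 10 of 15 alternatives. Cpr49Ag was lower in Asx0, at 10.53, 10.30, 10.58, 10.33 and 10.61 against 11.04, 10.78 and 10.65 (-0.35, SE 0.10, adjusted p = 0.0409), and was not called in SceI48A (-0.27, SE 0.15, adjusted p = 0.297).

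Over band 49A, 3 of 4 tested members were lower in Asx0 with a median of -0.36, and 1 of 5 was lower and 1 higher in SceI48A with a median of 0.06. The uncalled Cpr49Ah lay at the upper end in Asx0 (0.12, adjusted p = 0.1).

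**Figure D3:**
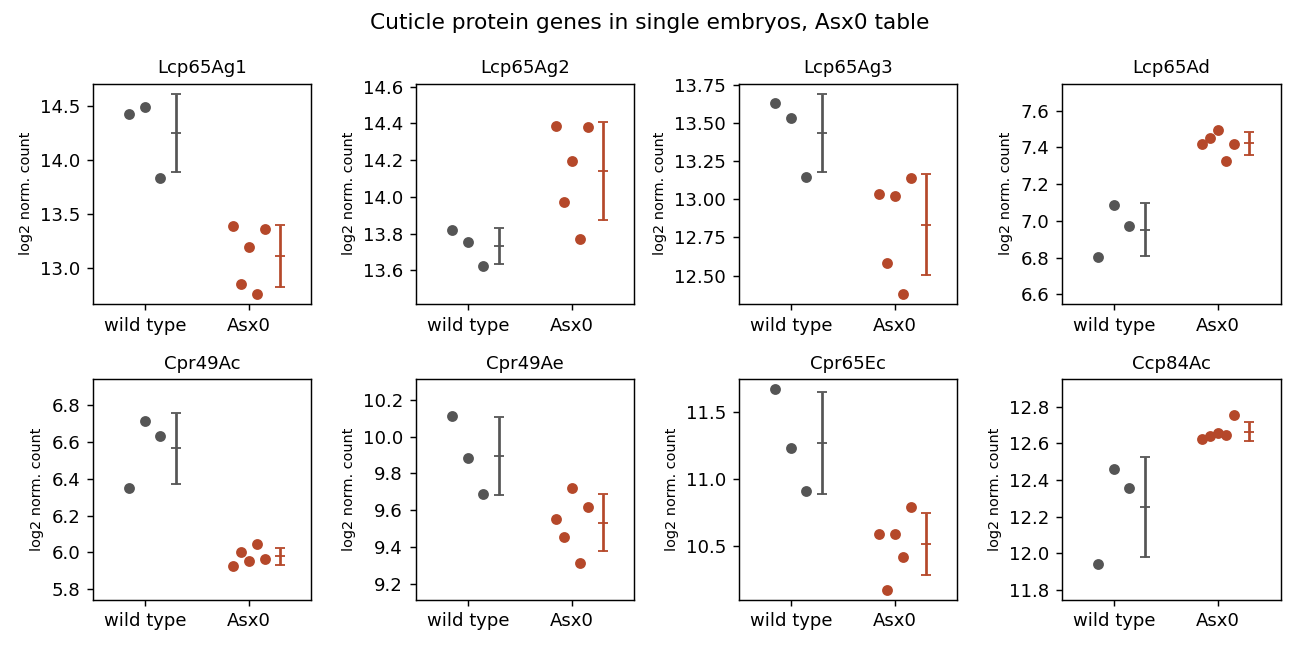
Log2 normalized count per embryo of 8 members in the Asx0 table, wild type (3 embryos, grey) and Asx0 (5 embryos, red), with the mean and SD beside each group; vertical axes differ and do not start at 0. Lcp65Ag1, Lcp65Ag3, Cpr49Ac and Cpr65Ec lie lower in all Asx0 embryos, Lcp65Ad and Ccp84Ac higher, and Lcp65Ag2 and Cpr49Ae overlap. The gap between the groups is only 0.0044 for Lcp65Ag3.

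In band 84A, 1 of 7 members was called in Asx0 and 0 of 7 in SceI48A, where 2 had an unadjusted p under 0.05 by limma. Ccp84Ac was at 12.62, 12.64, 12.65, 12.64 and 12.75 in Asx0 and at 11.94, 12.46 and 12.35 in wild type (0.41, SE 0.10, adjusted p = 0.0209). The groups did not overlap, and the 5 Asx0 embryos lay within 0.13 of each other. In SceI48A it was at 12.39, 12.93, 12.78 and 12.80 against 12.91, 12.60, 12.71 and 12.71 (-0.01, SE 0.11, adjusted p = 0.974). Over the 7 members the median was -0.17 in Asx0, with a range from -0.22 for Ccp84Ae to 0.47 for Ccp84Aa, and -0.06 in SceI48A, with a range from -0.18 for Ccp84Af to 0.41 for Ccp84Aa. The homeotic neighbours lab and pb belong to the Antennapedia complex, whose homeotic genes the authors count as Polycomb targets. Neither neighbour was called, at -0.09 and 0.27 in Asx0 (adjusted p = 0.758 and 0.105) and -0.22 and 0.03 in SceI48A (0.179 and 0.876).

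The 65E genes include the most abundant member. Cpr65Ea was at 15.13, 15.01, 15.16, 15.05 and 15.19 in Asx0 and 15.59, 15.52 and 15.25 in wild type (-0.35, SE 0.08, adjusted p = 0.0192), with no overlap. Cpr65Ec, 4.42 kb beyond Cpr65Eb, was at 10.59, 10.17, 10.59, 10.42 and 10.79 against 11.67, 11.23 and 10.91 (-0.75, SE 0.16, adjusted p = 0.0127), again with no overlap. Between them Cpr65Eb was not called in Asx0 (0.26, SE 0.24, adjusted p = 0.555), where wild-type replicate 1 was at 10.64 and the other 7 embryos at 11.72 to 11.99.

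In SceI48A the called gene of the 3 was Cpr65Eb. It was at 11.73, 11.83, 11.90 and 11.97 against 12.33, 12.22, 12.39 and 12.30 in wild type (-0.45, SE 0.07, adjusted p = 0.00398), and the groups did not overlap. Cpr65Ea was at 14.65, 14.88, 15.08 and 14.65 against 15.21, 14.86, 15.03 and 14.77 and Cpr65Ec had a fold change of -0.09, and neither was called (adjusted p = 0.454 and 0.834).

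Bands 47E and 64A held 1 called gene between them. Cpr47Ec was lower in SceI48A, at 3.87, 3.87, 3.90 and 3.90 against 4.0, 4.0, 3.96 and 3.97 (-0.10, SE 0.03, adjusted p = 0.0415), but its mean count was 15.6, its values are strongly shrunken and 11 of 14 alternatives lost the call. The 4 tested 47E members ranged from -0.01 to 0.71 in Asx0 and from -0.10 to 0.32 in SceI48A, with medians of 0.11 and 0.10. The upper end in Asx0 was Cpr47Eg, at 9.67, 9.04, 9.48, 8.75 and 9.81 against 9.02, 8.77 and 8.14 (adjusted p = 0.094). In 64A the medians were -0.13 over 3 genes in Asx0 and 0.01 over 4 in SceI48A, with ranges from -0.22 to 0.09 and from -0.46 to 0.17.

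Cpr64Ad, 1 of the most abundant uncalled members in both tables, was at 14.27, 14.16, 14.30, 14.26 and 14.25 in Asx0 against 14.45, 14.72 and 14.24 (-0.22, SE 0.09, adjusted p = 0.149). In SceI48A it was at 14.04, 14.19, 14.46 and 13.92 against 15.04, 14.48, 14.49 and 14.47 (-0.46, SE 0.14, adjusted p = 0.0681), where the groups did not overlap. By mean count, the 3 most abundant uncalled members also included Lcp65Ag2 in Asx0 and Cpr65Ea in SceI48A, both described above, and then Ccp84Ag in Asx0 (-0.17, SE 0.08, adjusted p = 0.202) and Cpr51A in SceI48A (-0.10, SE 0.16, adjusted p = 0.752).

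Cpr50Cb, Cpr56F and Lcp2 were also lower in both mutants, but their calls were less stable than those of Cpr49Ac. In Asx0 they were kept under 11, 7 and 7 of 15 alternative fits. All 3 were lost there with the msl-2 minus Sxl covariate described below. In SceI48A they were kept under 10 of 15, 14 of 15 and 13 of 14. Cpr50Cb was at 10.37, 10.16, 10.28, 10.32 and 10.28 in Asx0 against 10.52, 10.54 and 10.49 (-0.24, SE 0.05, adjusted p = 0.0181) and at 9.87, 9.92, 10.15 and 10.06 in SceI48A against 10.90, 10.49, 10.39 and 10.31 (-0.52, SE 0.12, adjusted p = 0.0248). Cpr56F was at 13.18, 13.03, 13.15, 13.14 and 13.24 in Asx0 against 13.49, 13.45 and 13.25 (-0.25, SE 0.07, adjusted p = 0.0365) and at 12.54, 12.89, 12.84 and 12.50 in SceI48A against 13.55, 13.13, 13.14 and 13.16 (-0.55, SE 0.12, adjusted p = 0.0168). Groups did not overlap for either gene in either table, although the gap for Cpr56F in Asx0 was only 0.01.

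Lcp2, a larval cuticle protein gene next to Lcp1 on 2R, was at 5.77, 5.61, 5.56, 5.54 and 5.61 in Asx0 against 6.08, 6.09 and 5.68 in wild type (-0.34, SE 0.09, adjusted p = 0.0365). In SceI48A it was at 4.49, 4.50, 4.49 and 4.49 against 4.82, 4.63, 4.73 and 4.66 (-0.22, SE 0.04, adjusted p = 0.0113). Lcp1 was lower in SceI48A, at 3.58, 3.58, 3.57 and 3.57 against 3.71, 3.64, 3.71 and 3.65 (-0.10, SE 0.03, adjusted p = 0.0337). Wild type overlapped Asx0 for Lcp2 and did not overlap SceI48A for either gene. The means of Lcp1 and Lcp2 in the SceI48A table were 12.7 and 26.2, so these differences are shrunken and rest on few reads.

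The 4 genes lower in both mutants are 4 of the 60 members tested in both tables, beside 1.57% of all 10069 genes. By limma 0 of the 60 were higher in both, beside 0.735% of all genes, so that a count of 0 does not set the members apart. At an unadjusted p under 0.05 in each, 3 members (5.0%) and 3.61% of all genes were higher in both. The 2 comparisons share no embryo, and both set a stock other than Oregon-R against Oregon-R.

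The remaining called members lie outside the larger groups. In Asx0, Cpr51A was lower, at 14.90, 14.78, 14.84, 14.79 and 14.88 against 15.11, 15.25 and 14.95 (-0.27, SE 0.07, adjusted p = 0.0323). Cpr97Eb was higher, at 8.95, 8.96, 8.80, 8.71 and 8.87 against 8.50, 8.54 and 8.52 (0.34, SE 0.07, adjusted p = 0.00781). Neither overlapped wild type, and the call of Cpr97Eb held under all 15 alternatives.

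In SceI48A, Cpr66D was at 12.38, 12.54, 12.58 and 12.90 against 13.13, 13.16, 13.28 and 13.14 (-0.58, SE 0.10, adjusted p = 0.00553). Cpr78Cc was at 8.43, 8.32, 8.43 and 8.04 against 9.13, 8.72, 8.84 and 8.68 (-0.54, SE 0.12, adjusted p = 0.0175). Both were lower in every SceI48A embryo. In Asx0 Cpr66D had a change of 0.15 (adjusted p = 0.606) and Cpr78Cc of -0.25 (adjusted p = 0.312).

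**Figure D4:**
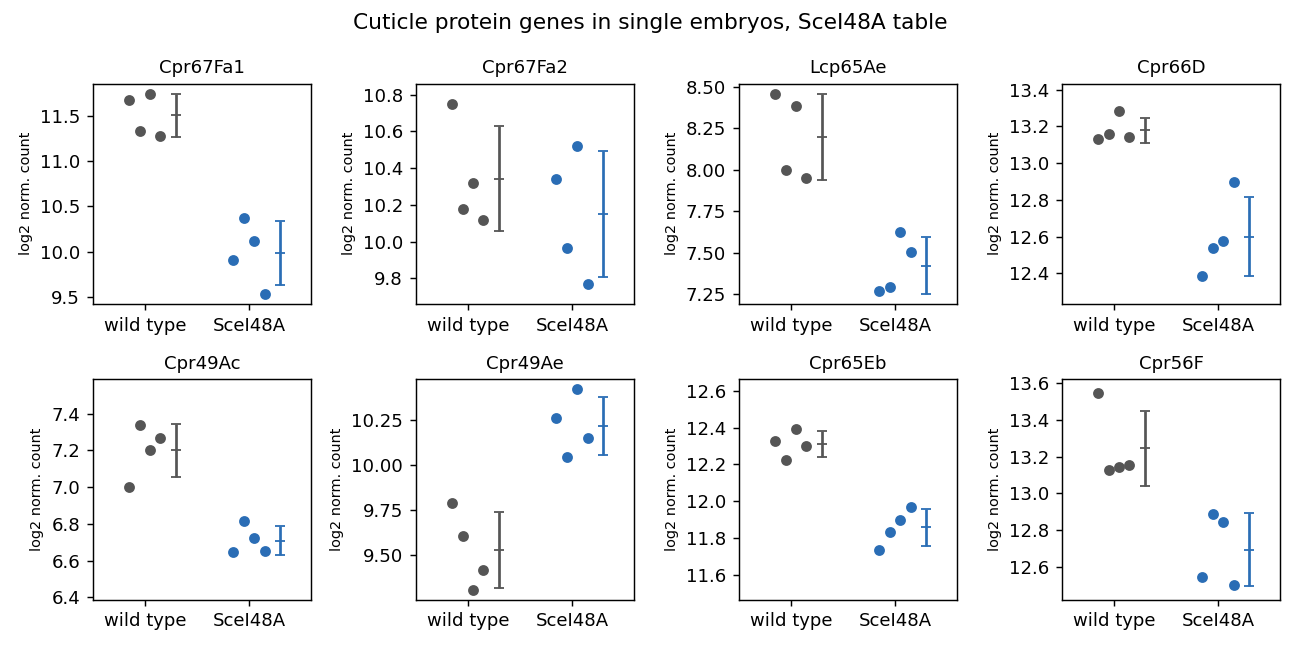
Log2 normalized count per embryo of 8 members in the SceI48A table, wild type (4 embryos, grey) and SceI48A (4 embryos, blue), with the mean and SD beside each group; vertical axes differ and do not start at 0. Cpr67Fa1 falls from a mean of 11.51 to 9.98 while Cpr67Fa2 overlaps, and Cpr49Ae is the member that lies higher in SceI48A.

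Whether the mutants differ from each other was tested as the difference between the 2 effects. It was called for 3 of 60 members, beside 4.11% of all 10069 genes. Cpr49Ae had the lowest adjusted p, with the Asx0 effect below the SceI48A effect (difference -1.05, SE 0.17, adjusted p = 0.00102). For Cpr67Fa1 the Asx0 effect was 1.62 above (SE 0.36, adjusted p = 0.0158) and for Lcp65Ad it was 0.53 above (SE 0.12, adjusted p = 0.02). Cpr66D narrowly missed the threshold (0.73, SE 0.21, adjusted p = 0.0578). For the other members that passed the test in 1 table only, the difference between the mutants was not called.

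Much of the variation in these genes lay between embryos of 1 genotype. Among members with a mean of at least 1000, the median residual SD on the log2 scale was 0.199 in the Asx0 table and 0.223 in the SceI48A table, against 0.0844 and 0.124 for all genes of that class. The upper quartile of all genes in the class was exceeded by 25 of the 30 members in the Asx0 table and by 22 of 25 in the SceI48A table.

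The embryos that were high or low shared this across many members. As the median deviation from the table mean over members with a mean of at least 100, SceI48A replicates 1 and 4 were at -0.31 and -0.30 and replicates 2 and 3 at 0.06 and 0.09, and the wild-type embryos were at 0.34, -0.03, 0.11 and -0.02. For the 7 members of band 65A in that class the SceI48A embryos were at -0.44, 0.28, 0.64 and -0.57 and the wild-type embryos at 0.65, -0.05, 0.13 and -0.21. The 65A genes thus spread over more than a log2 unit within SceI48A, and the groups overlapped.

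In the Asx0 table the same median over all members was 0.03, -0.18, 0.0017, -0.11 and 0.16 in Asx0 and 0.03, 0.22 and -0.11 in wild type. The 65A members were at 0.17, -0.26, 0.08, -0.28 and 0.23 against 0.0096, 0.28 and -0.28, and the 84A members followed at -0.0020, -0.28, 0.08, -0.17 and 0.24 against 0.08, 0.23 and -0.17. The Tweedle and Osiris genes were at 0.05, 0.12, 0.02, 0.14 and -0.10 in Asx0 and -0.24, -0.03 and 0.14 in wild type. In both tables the groups overlapped for each of these sets.

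**Figure D5:**
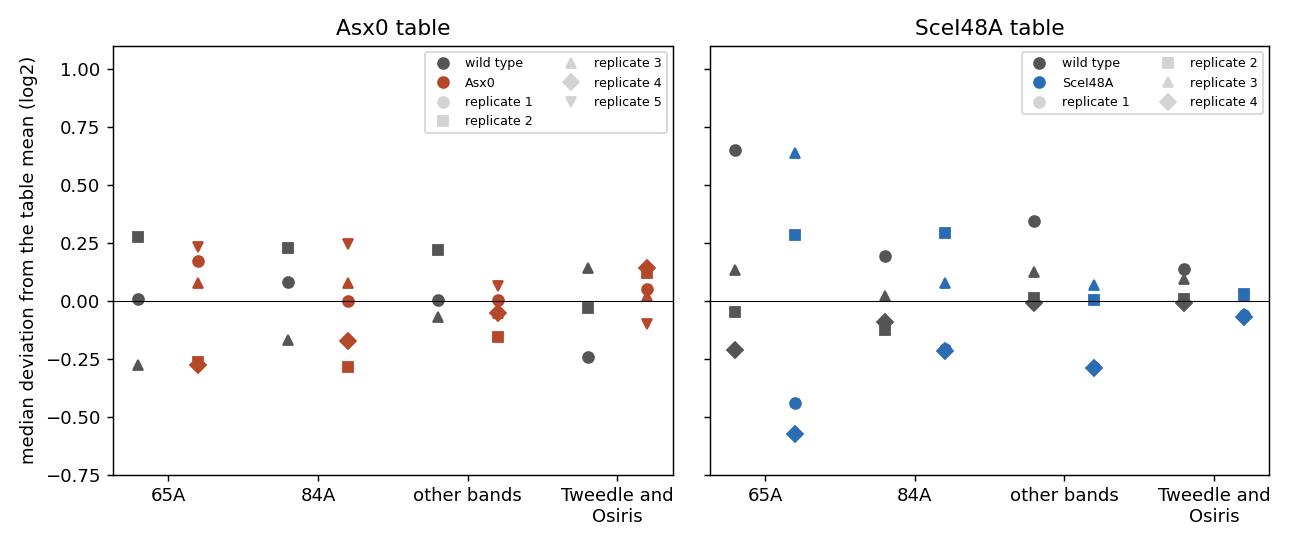
Median deviation of each embryo from the table mean, in log2 units, over 65A members, 84A members, members of other bands and Tweedle and Osiris genes with a mean of at least 100; grey for wild type, colour for the mutant, 1 marker shape per replicate number. In the SceI48A table the 65A medians run from -0.57 to 0.65, in the Asx0 table from -0.28 to 0.28, and mutant and wild type overlap.

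How many members passed depended on single embryos in the Asx0 table. Without Asx0 replicate 1, 2, 3 or 4 the fit gave 7, 5, 6 and 6 lower members in place of 12, all of them among the 12, which is 7.35% to 10.3% of members against 4.85% to 5.42% of all genes. Without wild-type replicate 1 it gave 5 (7.35%, against 4.74% of all genes), 3 of them among the 12. Without wild-type replicate 2 it gave 3, all among the 12, and their share of 4.41% was no larger than the 4.72% of all genes. Of the 15 calls in Asx0, the 4 of Lcp65Ag1, Cpr49Ac, Lcp65Ad and Cpr97Eb were kept under every alternative listed for the analysis, and that of Lcp65Ag1 was lost only in the sum over copies. Of the 12 calls in SceI48A, the 6 of Cpr67Fa1, Cpr49Ac, Cpr49Ae, Cpr65Eb, Cpr66D and Lcp65Ae were kept. In SceI48A 8 to 10 members were lower without single embryos (12.7% to 15.9%, against 2.46% to 3.77% of all genes).

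The sex of the embryos, read from msl-2 minus Sxl, was uneven in the Asx0 table. The difference was -3.69 in Asx0 replicate 1 and -2.53 to -2.37 in the other 4, and -3.94, -2.39 and -3.90 in wild type. With it as a covariate 3 of 68 members were lower and 2 higher in Asx0, which is 4.41% and 2.94%, against 4.26% and 3.07% of all genes, so the larger share of lower members was not seen with this covariate. In the SceI48A comparison 1 embryo of each genotype was low, at -3.74 and -3.93, and 12 of 63 members (19.0%) were lower with the covariate, against 4.23% of all genes. With the level of the Tweedle and Osiris genes as a covariate, 14 members were lower and 10 higher in Asx0 (20.6% and 14.7%, against 6.74% and 6.21% of all genes), and 5 were lower and 1 higher in SceI48A (7.94% and 1.59%, against 2.02% and 1.06%).

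Some markers of other cell types also differed between the genotypes, and not all genes of a list went the same way. All 4 midgut markers were lower in Asx0, among them Jon65Aiii at -2.22 (adjusted p = 2.87e-06), and their summed level was 10.91 to 11.20 in Asx0 against 11.79 to 12.23 in wild type. In SceI48A 1 of 4 was lower, Jon65Aiii at -1.09 (adjusted p = 0.0281), with sums of 10.82 to 11.76 against 11.84 to 11.96. Of the hemocyte markers 1 of 4 was lower in Asx0 and 2 of 3 in SceI48A, with sums of 12.41 to 12.65 against 12.66 to 12.83 and 12.61 to 13.11 against 13.09 to 13.33. Of 4 tracheal markers dpy was higher in Asx0 and dpy and pio in SceI48A, both also matrix genes of the epidermis, with sums of 14.20 to 14.48 against 13.98 to 14.18 and 14.62 to 14.97 against 13.89 to 14.48. The sums of 2 glial markers in Asx0 (12.67 to 12.77 against 12.84 to 12.93) and of 2 salivary gland markers in SceI48A (12.22 to 12.56 against 11.75 to 12.19) did not overlap either, with no gene of them called. In SceI48A the sums of the epidermal and cuticle secretion markers, given above, did not overlap. For neuron, muscle and fat body markers the sums overlapped in both tables. The tracheal, hemocyte and glial sums are dominated by dpy, Pxn and nrv2, with mean counts of 16240, 4600 and 6522 in the Asx0 table. Uncalled markers went both ways. In Asx0 and SceI48A, btl was at 0.16 and 0.13, trh at -0.08 and -0.17 and srp at 0.15 and 0.16. In Asx0, pio was at 0.31 and Pxn at -0.27. The part of all these markers in the cuticle results was not tested.

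Other genes of cuticle formation were called in both directions. No test compared these lists with the members. Of 22 tested chitin and matrix genes, 3 were higher and 0 lower in Asx0 by limma (7 and 1 at an unadjusted p under 0.05): Cda5, a chitin deacetylase (0.25), dpy, a giant apical matrix protein (0.31), and mmy, which makes the sugar donor for chitin (0.25), with adjusted p = 0.0293, 0.0298 and 0.0489. In SceI48A dpy (0.53, adjusted p = 0.0438) and pio, another apical matrix protein (0.57, adjusted p = 0.0013), were higher and 0 were lower (5 and 1 at an unadjusted p under 0.05). Of 24 Tweedle genes, which encode cuticle proteins without the Rebers and Riddiford domain, TwdlH was higher (0.55) and TwdlW and TwdlY were lower (-0.65 and -0.75) in Asx0, and of 23 in SceI48A TwdlT and TwdlV were lower (-0.33 and -0.54).

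Of 5 genes of other cuticle families, resilin, the gene of the elastic cuticle protein, was lower in both mutants (-0.81, adjusted p = 1.82e-05 in Asx0 and -0.49, adjusted p = 0.0438 in SceI48A). Vajk1 was lower in SceI48A (-0.39, adjusted p = 0.0182) and at -0.24 in Asx0 (adjusted p = 0.0549). The Osiris genes Osi12, Osi18, Osi19 and Osi20 were lower in SceI48A, at -0.33, -0.42, -0.47 and -0.33, and Osi13 was higher in both mutants, at 0.22 in Asx0 and 0.27 in SceI48A. Of 8 tanning genes stw was higher in Asx0 (0.26, adjusted p = 0.034), and in SceI48A y was higher (2.37, adjusted p = 0.00907) and t was lower (-0.43, adjusted p = 0.041). The SceI48A stock carries transgenes that Oregon-R lacks, and their part in the level of y was not tested. Of 15 hormone and timing factors 0 were called in Asx0 by limma, and 0 had an unadjusted p under 0.05. In SceI48A EcR, the ecdysone receptor, and its target Eip75B were higher (0.42 and 0.38, adjusted p = 0.028 and 0.0419), and at an unadjusted p under 0.05 5 factors were higher and 0 lower. The summed level of the 15 was 16.37 to 16.55 in SceI48A and 16.02 to 16.28 in wild type, with no overlap, and 15.64 to 15.79 in Asx0 and 15.67 to 15.74 in its wild type. In the SceI48A table ftz-f1 made up most of this sum, with a mean count of 49004 beside 14602 for shep, the next. By limma ftz-f1 was not called in SceI48A (0.27, adjusted p = 0.0713).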

How the data were processed

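Single embryos were the samples, and their groups and replicate numbers came from the labels. According to the methods, the authors ran Salmon for quantification, tximeta for gene-level sums and DESeq2 for the genotype comparison; the submitters' notes name dm6. Each table holds log2 normalized counts per embryo deposited by the authors, whose transformation is not given in the sources used here and whose low values are shrunken. It also holds the authors' mean normalized count, a signal pooled over the 8 embryos, and their own fold changes, errors, test statistics and p-values, which were not used. Read depth per embryo is unknown.

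Symbols were matched by gene ID (32 of 13754 without one) and coordinates came from annotation release 6.54. limma 3.58.1 in R 4.3.3 (lmFit, eBayes with trend) was fitted per table over genes with a mean of at least 10, with Benjamini-Hochberg adjustment over all of them and a threshold of 0.05, and over all 16 embryos for the difference between effects. The code was tested on simulated data. The labels do not say whether embryos came from separate crosses, so p-values measure the spread between these embryos.

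Members named with values were those called (at most 12 per table and direction), those with the largest called difference between effects, the extremes of mean count, the most abundant uncalled ones, and the largest changes of each band with at least 4 tested members; others named were chosen after their values were seen. Protein identity between members was not analysed here. Members and lists were chosen with earlier results of these data known. Alternatives were other filters, robust variances, quantile normalization, a replicate block, 2 covariates and each embryo left out; sums over numbered copies were added after seeing the data. Plots were drawn with matplotlib 3.10.9.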

Additional observations from a re-analysis of the deposited data

Results flagged for a closer look

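In groups of 4 or 5 embryos, 4 of 80 sets of values of the named members had 1 embryo apart from the others, and chance gives about 1 in 20. The sets share embryos and are not independent. Ccp84Ac was highest in Asx0 replicate 5, at 12.75, where all Asx0 embryos spanned only 0.13. In the wild type of the SceI48A table, replicate 1 was highest for Cpr56F, at 13.55, and for Cpr64Ad, at 15.04. Cpr64Aa was highest in SceI48A replicate 4, at 3.51, with a mean count of 10.9 and a span of only 0.14 over the SceI48A embryos.

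For 3 of 60 members the effects of the mutants differed by the test of the difference itself, beside 4.11% of all 10069 genes. The Asx0 effect minus the SceI48A effect was -1.05 for Cpr49Ae, 1.62 for Cpr67Fa1 and 0.53 for Lcp65Ad on the log2 scale.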

How the results depend on the processing

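Of 786 values of named members under the alternatives, 640 kept their direction and their side of the threshold, 100 lost the call, 7 gained it and 39, from 15 members in a table, had the other sign with no call in either fit. The median over the members also had the other sign in 4 of 30 values. The log2 fold changes with the other sign were, for Cpr47Ec in Asx0, -0.022 with the replicate block and -0.0077 with the msl-2 minus Sxl covariate, which gave -0.19 for Cpr67Fa1 in Asx0. In SceI48A, quantile normalization gave 0.0028 for Cpr64Aa, and the Tweedle and Osiris covariate gave 0.095 for Ccp84Ac, 0.045 for Cpr51A, 0.0081 for Cpr64Aa, 0.056 for Cpr65Ec, 0.023 for Cpr67Fb and 0.23 for Lcp65Ag3. The sum over the Lcp65Ag copies, chosen after seeing the data, gave 0.025 in SceI48A, where Lcp65Ag1 alone was at -0.52 without a call. Without single embryos, uncalled fold changes in Asx0 ran from -0.18 to 0.49 for Cpr65Eb, -0.065 to 0.36 for Cpr66D, -0.38 to 0.49 for Cpr67Fa1, -0.0089 to 0.022 for Cpr72Ec, -0.26 to 0.012 for Lcp1 and -0.42 to 0.31 for Lcp65Ae. In SceI48A they ran from -0.076 to 0.10 for Ccp84Ac, -0.18 to 0.067 for Cpr51A, -0.032 to 0.014 for Cpr64Aa, -0.28 to 0.074 for Cpr65Ec, -0.059 to 0.027 for Cpr67Fb, -0.011 to 0.037 for Cpr72Ec, -0.13 to 0.014 for Lcp65Ad and -0.32 to 0.17 for Lcp65Ag3. Leaving out single embryos gave 3 to 6 higher and 3 to 14 lower members in Asx0, 1 to 2 higher and 8 to 10 lower in SceI48A, and 3 to 6 members with a called difference between effects. In Asx0 the higher members were 4.41% to 8.82%, beside 3.54% to 4.5% of all genes. The lower ones were 4.41% to 20.6%, beside 4.72% to 5.87%. The Tweedle and Osiris covariate gave 10 higher members in Asx0 and 5 lower in SceI48A. The msl-2 minus Sxl covariate gave 3 lower members in Asx0 and 1 member with a called difference between effects. Quantile normalization gave 2 higher members in SceI48A (3.17%, beside 2.94% of all genes). The sum over the Lcp65Ag copies lost the call in Asx0. The cause of these shifts was not tested; leaving out embryos also leaves fewer samples. Means below 50 carry strongly shrunken values, which limits what could be called there.

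The replicate block gave 4 lower members in Asx0 against 12, which is 5.88% of members beside 3.98% of all genes. In SceI48A it gave 8 against 11, which is 12.7% of members beside 2.84% of all genes. Same-numbered embryos deviated together with correlations of -0.09 to 0.16 in the Asx0 table and -0.13 to 0.11 in the SceI48A table, so the numbers do not pair the embryos.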
